A study of Mus musculus with 6 samples.

Results

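The interleukin-1 family was examined in cultured KPC cells, a line from a mouse model of pancreatic ductal adenocarcinoma. In 3 libraries the cells carried a short hairpin RNA against Brca2 (shBrca2), and in the other 3 a non-targeting hairpin (shControl). Both hairpins were delivered by lentivirus in the pLKO.1 vector and both cultures were selected with puromycin, so the groups shared the vector and the selection. Cells grown in growth medium were sorted as live by exclusion of propidium iodide, and their polyadenylated RNA was read at the 3' end in libraries of a MARS-seq type. The labels name 1 hairpin treatment per group and do not say whether the libraries of a group came from separate cultures. The study describes the cells as cultured and yet counts their replicates as mice, so what separates the libraries of a group is unclear. The p-values therefore measure the spread between these libraries, which may be technical. The family list held 10 genes: the antagonist Il1rn, the ligands Il1a, Il1b, Il18 and Il33, the receptor chains Il1r1 and Il1rap, the adaptor Myd88 and the kinases Irak1 and Irak4. Of these, 7 were among the 10616 genes of the count table, and Il1a, Il1b and Il1rap were not analysed here. The members were chosen by the measured difference of Il1rn, which was higher in shBrca2 at high counts, together with genes of its pathway. The difference of Il1rn is therefore given as a description with no test.

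Interleukin-1 alpha and beta bind the receptor encoded by Il1r1, which then recruits the accessory chain encoded by Il1rap. The paired receptor draws in the adaptor MyD88 and the kinases IRAK4 and IRAK1, and the signal ends in NF-kB and MAP kinase activation and in transcription of cytokines, chemokines and adhesion molecules. The product of Il1rn, the interleukin-1 receptor antagonist, occupies the same receptor without recruiting the accessory chain and so blocks the signal. Interleukin-18 and interleukin-33 use other receptors that feed into the same adaptor. In pancreatic cancer, interleukin-1 released by tumor cells is known as a signal to neighbouring fibroblasts.

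Total counts ranged from 1519340 to 2452467 per library. The libraries followed their labels for the targeted gene. Brca2 had normalized counts (counts divided by DESeq2 size factors) of 13.6, 10.4 and 12.2 in shBrca2 and 33.3, 43.6 and 32.6 in shControl. Its fitted log2 difference was -1.61 ± 0.44 (SE) (adjusted p = 0.029 by DESeq2). That call was lost in 3 of 6 fits that each left out a library (leave-one-out fits). One library stood apart: on the leading principal component of the libraries, which took 40.9% of the variance, shControl replicate 3 lay at 0.74, against 0.26 and -0.18 for the other shControl libraries and -0.42, 0.02 and -0.43 for shBrca2. Values without it are given for Il1rn, Il33, Myd88, Nfkbia and Lif, and not for every gene named. The labelled cell type was checked against its markers. Of 10 ductal epithelial markers, 9 were listed, with summed normalized counts of 16818 to 17664 in shBrca2 and, without overlap, 17746 to 18896 in shControl. Krt7 and Sox9 were called higher and 0 markers were called lower, while 6 of 9 had a log2 fold change below 0 (list median -0.12). The sums were led by Krt8, Krt18 and Krt19, none of them called, and Epcam had only 3 to 10 raw counts. The part of these marker differences in the other results was not tested. Of 12 leukocyte markers, 1 was listed (Cd68, summed level 12.2 to 20.4 in shBrca2 and 11.1 to 16.8 in shControl). Of 10 fibroblast markers, 1 was listed (Col1a2, 10.9 to 17.0 and 7.91 to 22.2), and of 6 endothelial markers, 1 (Egfl7, 19.1 to 28.7 and 27.3 to 37.7). Ptprc and Pecam1, which define leukocytes and endothelium, were not among the listed genes.

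Il1rn (chromosome 2, 24336860 to 24351491, plus strand, GRCm38.p6, protein coding) encodes the antagonist. Its normalized counts were 2175, 2038 and 1808 in shBrca2 and 1049.8, 1121 and 1102 in shControl. Every shBrca2 library lay above every shControl library, and the lowest shBrca2 value was 1.61 times the highest shControl value. The shBrca2 mean of 2007 ± 185 (SD, n = 3) was 1.84 times the shControl mean of 1091 ± 37.0 (SD, n = 3). On the log2 scale the fitted difference was 0.88 ± 0.14 (SE), with a 95% interval of 0.61 to 1.15. Because Il1rn was chosen by this difference, the interval is not a test and the difference may be overstated. In bulk RNA of this kind, more cells that express a gene cannot be told apart from more RNA per cell. Leaving out each library in turn gave log2 fold changes from 0.82 to 0.95, with 0.88 without shControl replicate 3. The raw counts behind these values ran from 1039 to 2156 per library.

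Mammalian Il1rn has alternative first exons that give a secreted and an intracellular antagonist. GENCODE vM39 on GRCm39 lists 5 protein-coding transcripts of the mouse gene, with 3 different 5' ends spread over 8457 bases. Of these 5, 4 end at the same 3' end. A 3' end count thus could not separate those 4 transcripts. Which transcripts give the secreted or the intracellular form was not examined. No other annotated gene overlapped Il1rn, so the count had no competing source by position.

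The promoter of Il1rn is shown because this gene carried the difference, together with those of Nfkbia and Lif, genes of the pathway lists that fell. Vcam1, another gene of these lists that fell, had no promoter sequence available. Each sequence runs from 250 bases before to 50 bases after the RefSeq gene start (300 bases, GRCm38.p6), 5' to 3' on the strand of the gene. For Il1rn this start is the upstream one, and the downstream starts were not examined. Capitals mark matches on either strand to the NF-kB consensus or to TGANTCA, the AP-1 motif.
Il1rn, chr2:24336610-24336909, plus strand: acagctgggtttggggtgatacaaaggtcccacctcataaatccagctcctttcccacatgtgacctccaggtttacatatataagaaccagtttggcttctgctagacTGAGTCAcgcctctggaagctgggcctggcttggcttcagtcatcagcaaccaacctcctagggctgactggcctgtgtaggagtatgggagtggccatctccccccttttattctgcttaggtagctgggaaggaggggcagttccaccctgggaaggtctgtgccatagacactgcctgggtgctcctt
Nfkbia, chr12:55492598-55492897, minus strand: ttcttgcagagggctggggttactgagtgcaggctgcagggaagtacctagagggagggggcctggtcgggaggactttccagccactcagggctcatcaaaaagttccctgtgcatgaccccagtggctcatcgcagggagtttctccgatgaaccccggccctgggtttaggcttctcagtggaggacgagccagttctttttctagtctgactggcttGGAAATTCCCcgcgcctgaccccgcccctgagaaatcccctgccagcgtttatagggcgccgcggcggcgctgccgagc
Lif, chr11:4257318-4257617, plus strand: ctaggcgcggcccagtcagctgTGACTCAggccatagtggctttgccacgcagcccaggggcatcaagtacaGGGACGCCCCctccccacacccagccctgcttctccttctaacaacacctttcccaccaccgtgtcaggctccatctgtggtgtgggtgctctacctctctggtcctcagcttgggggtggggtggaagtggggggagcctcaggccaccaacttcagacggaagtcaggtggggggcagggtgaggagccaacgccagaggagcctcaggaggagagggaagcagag
The Il1rn window held 1 AP-1 match, starting at -141 relative to the gene start, and 0 matches to the NF-kB consensus. The Nfkbia window held 1 NF-kB match at -29, and the Lif window held 1 NF-kB match at -178 and 1 AP-1 match at -228. No marked match overlapped another. Of 9 promoters searched, 3 held the NF-kB consensus and 2 the AP-1 motif. The remaining NF-kB match lay at -18 in Irak1, a member with a log2 fold change of 0.40 that was not called. The searched windows of Il1r1 (from 40224830) and Irak4 (from 94543410) were placed by other starts than the gene starts given below. Nfkbia and Lif came from lists made by known roles in NF-kB signalling. Among 27025 RefSeq promoters of this length, 8.18% held the NF-kB consensus and 7.93% the AP-1 motif. TTNNGCAA, a C/EBP motif found in 10.8% of promoters, and GAANNTTC, a heat shock element motif found in 7.95%, had no match in the 3 windows shown. Such matches are letters in a window and not evidence of binding.

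**Figure D1:**
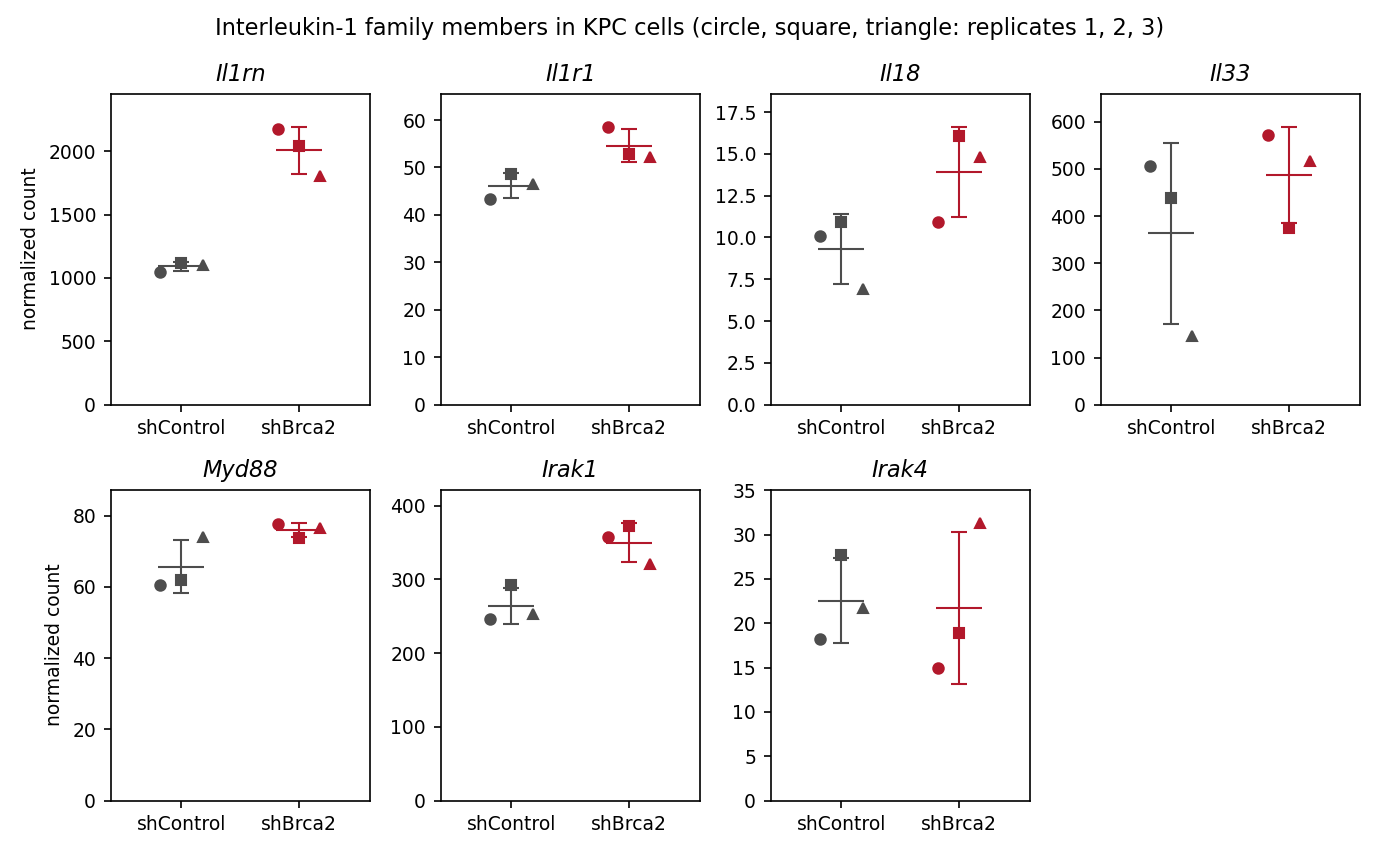
Normalized counts (counts divided by size factors, linear axes from 0) of the 7 family members in each library, with circles, squares and triangles for replicates 1, 2 and 3 and a bar with whiskers for the mean ± SD (n = 3). Il1rn lay between 1808 and 2175 in shBrca2 and between 1049.8 and 1121 in shControl, while Il33 was at 145 in shControl replicate 3 and at 374 or above in the other libraries.

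Il1rn apart, 6 members were tested, and 0 of them were called by DESeq2. A call took 3 thresholds: a Benjamini-Hochberg adjusted p under 0.1, a log2 fold change beyond 0.5 in either direction, and a mean normalized count (base mean) over 5. Across the whole table, 1.27% of 9997 tested genes were called, 0.77% higher and 0.5% lower. Of the 6 members, 1 (Irak1) had an unadjusted p under 0.05, and edgeR called 0. The groups did not overlap for 2 of them, Irak1 and Il1r1, each with shBrca2 above shControl. Over all listed genes 20.3% did not overlap, and 10.2% did so with shBrca2 above. The fitted differences of 5 of the 6 were above 0 and that of Irak4 was below 0, with a median log2 fold change of 0.32, against -0.00094 over all tested genes.

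The ligands that were measured did not pass the test. Il33 (chromosome 19, 29925113 to 29960718, plus strand) encodes interleukin-33, a nuclear alarmin released from damaged epithelium. Its normalized counts were 572, 374 and 516 in shBrca2 and 507, 438 and 145 in shControl. The groups overlapped, and the single low value belonged to shControl replicate 3, the library that stood apart. The log2 fold change was 0.42 ± 0.54 (SE), with a 95% interval of -0.63 to 1.48 and an adjusted p of 0.93 by DESeq2. Without shControl replicate 3 it was 0.04 ± 0.21 (SE), so most of the fitted difference rested on this library, whose part in the result was not otherwise tested. Without shControl replicate 1 the value was 0.74.

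Il18 (chromosome 9, 50554700 to 50581841, plus strand) encodes interleukin-18, a ligand stored as a precursor in epithelial cells. Its normalized counts were 10.9, 16.1 and 14.8 in shBrca2 and 10.1, 10.9 and 6.92 in shControl. The groups met at 10.9. The log2 fold change of 0.59 had an interval of -0.56 to 1.74 (adjusted p = 0.889 by DESeq2). Raw counts were only 7 to 17 per library, and the wide interval leaves the difference poorly determined. Il18 overlaps Bco2 and Tex12 on the opposite strand, and whether reads were assigned by strand is not given in the sources used here, which makes its count uncertain.

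Il1r1 (chromosome 1, 40222480 to 40316201, plus strand) encodes the signalling receptor that the antagonist blocks. Its normalized counts were 58.6, 52.9 and 52.2 in shBrca2 and 43.4, 48.6 and 46.5 in shControl. Each shBrca2 library lay above each shControl library, by a small step. The means were 54.6 ± 3.48 and 46.2 ± 2.61 (SD, n = 3), and the log2 fold change of 0.23 with an interval of -0.35 to 0.82 did not pass the test (adjusted p = 0.928 by DESeq2). An annotated transcript of unknown coding status, Gm38070, overlaps Il1r1 on the same strand. Whether this overlap affected the count of Il1r1 was not examined.

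Among the adaptor and kinases, Irak1 (chromosome X, 74013914 to 74023921, minus strand), which encodes the kinase released from the receptor complex to activate TRAF6, showed the widest separation. It had 357, 372 and 320 normalized counts in shBrca2 and 247, 292 and 253 in shControl. The groups did not overlap, and the log2 fold change was 0.40 ± 0.17 (SE) with an interval of 0.07 to 0.74. Over all tested genes its adjusted p was 0.403 by DESeq2 and 0.204 by the edgeR quasi-likelihood test, so it was not called. The microRNA genes Mir5132 and Mir718 overlap Irak1 on the same strand.

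Myd88 (chromosome 9, 119335934 to 119340018, minus strand), the adaptor shared with most Toll-like receptors, had 77.6, 73.7 and 76.6 normalized counts in shBrca2 and 60.6, 62.1 and 74.2 in shControl. The groups overlapped by a narrow margin at about 74, and the log2 fold change was 0.21 with an interval of -0.30 to 0.72 (adjusted p = 0.925 by DESeq2). The overlap came from shControl replicate 3, and without that library the log2 fold change of Myd88 was 0.31. Myd88 overlaps Acaa1a on the opposite strand. Irak4 (chromosome 15, 94543613 to 94568317, plus strand), the kinase that acts before IRAK1, had 15.0, 18.9 and 31.3 normalized counts in shBrca2 and 18.2, 27.7 and 21.8 in shControl. The spread within shBrca2 was wider than the distance between the means, and the log2 fold change was -0.04 with an interval of -0.93 to 0.85 (adjusted p = 0.989 by DESeq2). Irak4 overlaps Pus7l and Twf1 on the opposite strand.

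**Figure D2:**
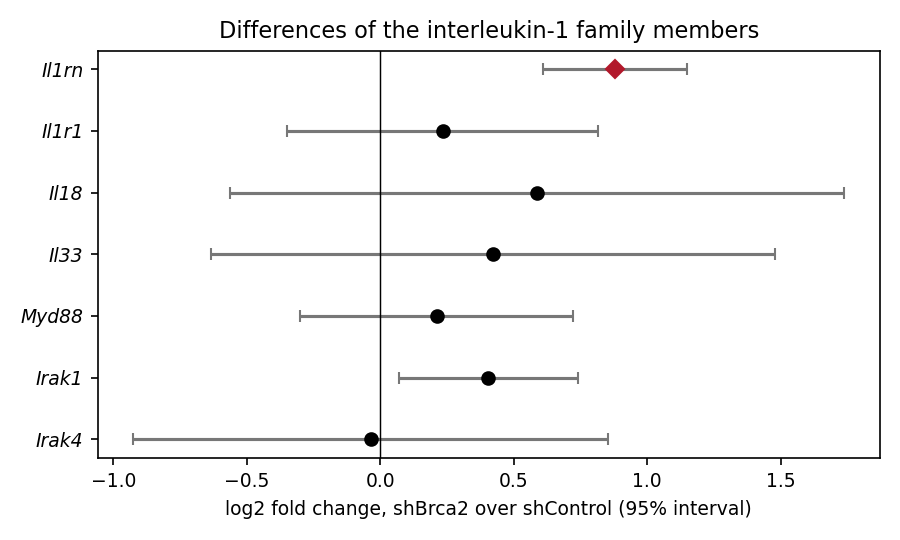
Log2 fold changes of the 7 members, shBrca2 over shControl, with 95% intervals from the DESeq2 standard errors. A diamond marks Il1rn, which is shown as a description (0.61 to 1.15), and of the other members the interval of Irak1 (0.07 to 0.74) lay above 0 and the remaining 5 crossed 0.

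Other genes of the pathway were read from lists made by known role. Of 14 other ligands, receptors and decoys, 2 were listed and 0 were called. Sigirr, an inhibitory receptor of the family, had a log2 fold change of 0.04 (adjusted p = 0.988 by DESeq2), and Il18rap, the accessory chain of the interleukin-18 receptor, one of -0.17 (adjusted p = 0.972). The decoy receptor gene Il1r2 and the interleukin-33 receptor gene Il1rl1 were not analysed here.

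Of 19 genes for ligand processing and the inflammasome, the platform that activates caspase-1, 9 were listed and 0 were called, at a median log2 fold change of 0.13. Casp1, Pycard and Nlrp3 were not analysed here. Gsdmd, whose cleaved product forms the pores through which interleukin-1 leaves cells, had a log2 fold change of -0.18 (adjusted p = 0.852 by DESeq2), and Capn2, a calpain subunit, one of -0.24 (adjusted p = 0.721). Nlrc4, which encodes an inflammasome component, had 49.0, 47.3 and 40.0 normalized counts in shBrca2 and 25.3, 29.4 and 25.7 in shControl. These did not overlap, but the log2 fold change of 0.75 ± 0.35 (SE) did not pass the test (adjusted p = 0.489). Aim2, a sensor of cytosolic DNA that was singled out after its values were seen, had raw counts of 10, 5 and 11 in shBrca2 and 0, 1 and 0 in shControl. Its adjusted p was 0.029 by DESeq2, but its base mean of 4.79 was under the minimum of 5 and it was not called. It was the 1 gene of the whole table that passed the thresholds for p and fold and missed the one for the mean.

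Of 27 genes that relay the signal below the receptor, 22 were listed, 21 had an adjusted p and 0 were called. Their log2 fold changes had a median of 0.04, with 13 above and 9 below 0. Mapk14, the p38 alpha kinase, had a log2 fold change of -0.06 (adjusted p = 0.986 by DESeq2), and Map2k3, which activates p38, one of 0.04 (adjusted p = 0.988). Chuk, which encodes the kinase IKK alpha, had 120, 127 and 156 normalized counts in shBrca2 and 93.0, 88.9 and 102 in shControl. These did not overlap, and the log2 fold change of 0.51 had an adjusted p of 0.448. Map2k6 had one of -0.48 with overlapping groups (adjusted p = 0.852).

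Of 15 Toll-like receptors and shared adaptors, many of which join the same route at MyD88, 3 were listed and 0 were called. Cd14, a co-receptor for bacterial lipopolysaccharide, had a log2 fold change of -0.45 with overlapping groups (adjusted p = 0.523 by DESeq2). Ticam1 and Tirap, which encode the adaptors TRIF and MAL, had log2 fold changes of -0.05 and -0.12 (adjusted p = 0.989 and 0.975). No Toll-like receptor itself was among the listed genes.

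The NF-kB subunits and inhibitors were all listed, 13 of 13. Of these, 1 was called and it fell, against 0.5% of all tested genes called lower. The list had a median log2 fold change of -0.38 with 9 of 13 genes below 0, against a median of -0.00094 and 50.2% below 0 over all tested genes. The called gene, Nfkbia (chromosome 12, 55489409 to 55492647, minus strand), encodes the inhibitor that holds NF-kB in the cytoplasm and is itself transcribed by NF-kB. Its normalized counts were 321, 322 and 238 in shBrca2 and 367, 454 and 553 in shControl. The groups did not overlap, and the highest value was that of shControl replicate 3. The fitted difference was -0.64 ± 0.20 (SE) on the log2 scale with an adjusted p of 0.0909 by DESeq2. This call was near the threshold: it was lost under edgeR (adjusted p = 0.155) and in 5 of 6 leave-one-out fits (adjusted p = 0.53 without shControl replicate 3).

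Relb, a subunit of the noncanonical NF-kB route, had 38.1, 52.0 and 42.6 normalized counts in shBrca2 and 68.7, 72.1 and 96.9 in shControl. Although these did not overlap, the adjusted p of its log2 fold change of -0.83 was 0.209. Rela, the main activating subunit, had overlapping groups and a log2 fold change of -0.37 (adjusted p = 0.539). The list also held 4 genes above 0. Among them was the subunit gene Nfkb1, outside the rule for named genes, at 0.39 (adjusted p = 0.64 by DESeq2).

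Of 37 genes known to respond to interleukin-1 and NF-kB, 27 were listed, 26 had an adjusted p, and 2 were called. Lif and Vcam1 fell and 0 genes rose, where 1.27% of all tested genes were called and 0.5% were called lower. The list had a median log2 fold change of -0.26, and 20 of 27 genes were below 0, against 50.2% of all tested genes. Il6, Csf3, Lcn2 and Saa3 were not analysed here. Many of these genes also respond to other signals, and this design does not separate their sources.

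Vcam1 (chromosome 3, 116110020 to 116129688) encodes an adhesion molecule for leukocytes. It had 157, 149 and 157 normalized counts in shBrca2 and 298, 268 and 230 in shControl, a narrow band in shBrca2 below all shControl values. The difference was -0.78 ± 0.19 (SE) on the log2 scale with an adjusted p of 0.00855 by DESeq2, and the call was kept in all 6 leave-one-out fits.

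Lif (chromosome 11, 4257568 to 4272514, plus strand) encodes leukemia inhibitory factor, a cytokine of the interleukin-6 family. It had 43.6, 35.0 and 37.4 normalized counts in shBrca2 and 65.7, 79.7 and 103 in shControl. The highest value again came from shControl replicate 3. Its log2 fold change was -1.11 ± 0.30 (SE), and DESeq2 gave an adjusted p of 0.0289. The call was lost in 4 of 6 leave-one-out fits (adjusted p = 0.309 without shControl replicate 3).

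**Figure D3:**
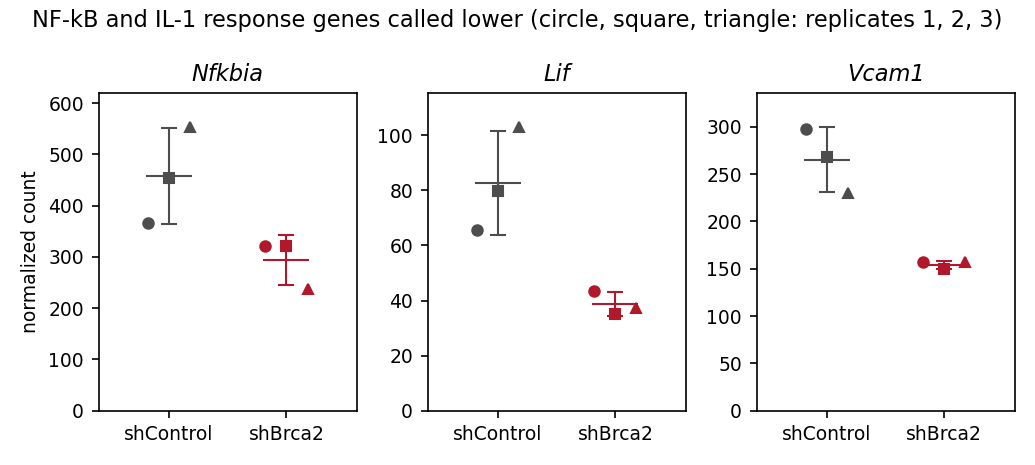
Normalized counts (linear axes from 0) of the 3 called genes of the NF-kB and response lists in each library, with circles, squares and triangles for replicates 1, 2 and 3 and a bar with whiskers for the mean ± SD (n = 3). In each panel the 3 shBrca2 libraries sit below the 3 shControl libraries.

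The 2 response genes with the highest base means did not pass the test. Ier3, an immediate early gene that protects cells from death, had 1968, 2059 and 2037 normalized counts in shBrca2 and 2501, 2917 and 2395 in shControl. These did not overlap, and the log2 fold change of -0.37 ± 0.14 (SE) had an adjusted p of 0.276 by DESeq2. Fosl1, which encodes the AP-1 subunit FRA-1, had a log2 fold change of -0.10 (adjusted p = 0.943). Ccl2, a chemokine for monocytes, had 10.9, 15.1 and 28.7 normalized counts in shBrca2 and 30.3, 39.4 and 39.6 in shControl. These did not overlap either, and the log2 fold change of -0.96 ± 0.43 (SE) did not pass the test (adjusted p = 0.451).

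**Figure D4:**
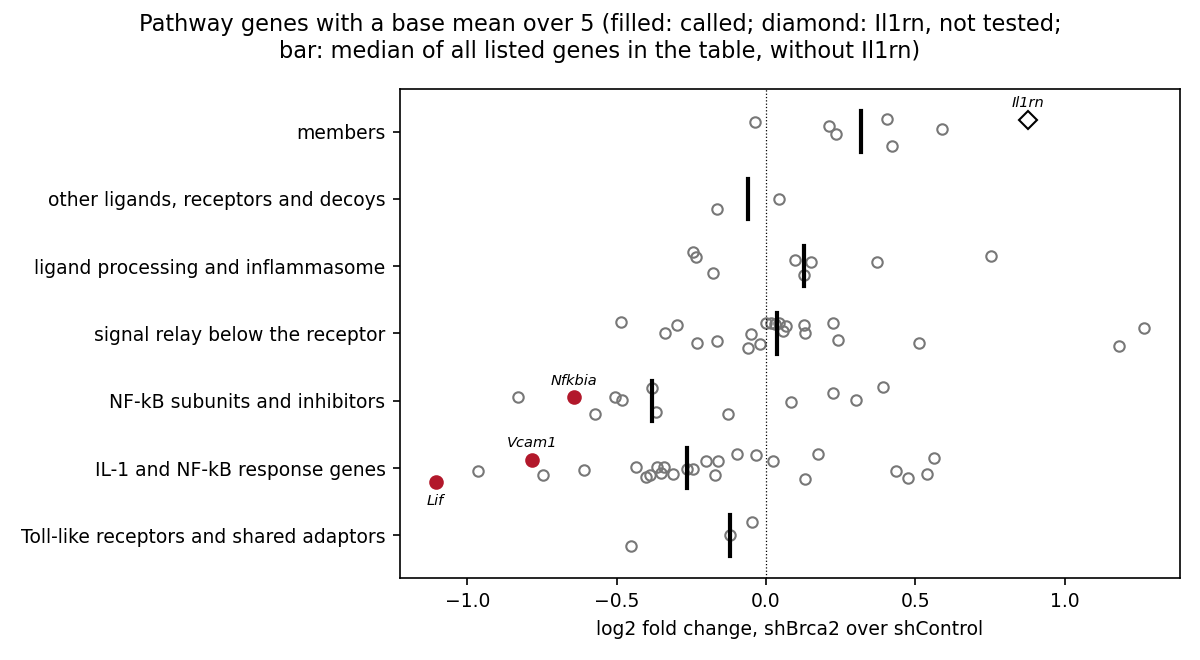
Log2 fold changes (shBrca2 over shControl) of the listed genes with a base mean over 5, 1 row of points per list, with filled points for called genes and a bar for the median of all listed genes without Il1rn, which is the untested open diamond. Nfkbia, Lif and Vcam1 are filled below 0, and the medians of the NF-kB and response lists were -0.38 and -0.26.

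The genes most like Il1rn in pattern were then sought among those with a base mean of at least 50, by the root-mean-square distance between log2(normalized count + 1) values centred on their mean over the 6 libraries. The nearest 5 were Sord (sorbitol dehydrogenase), Lgals2 (galectin-2), Tcf23 (a basic helix-loop-helix protein), Hprt (a purine salvage enzyme) and Lamp2 (a lysosomal membrane protein), at distances of 0.0739, 0.0988, 0.103, 0.106 and 0.114. Sord had 240, 223 and 208 normalized counts in shBrca2 and 112, 132 and 111 in shControl, and in both Sord and Il1rn the highest library was shBrca2 replicate 1. As the measure is led by the difference between the groups, genes of like size and direction come first by construction.

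**Figure D5:**
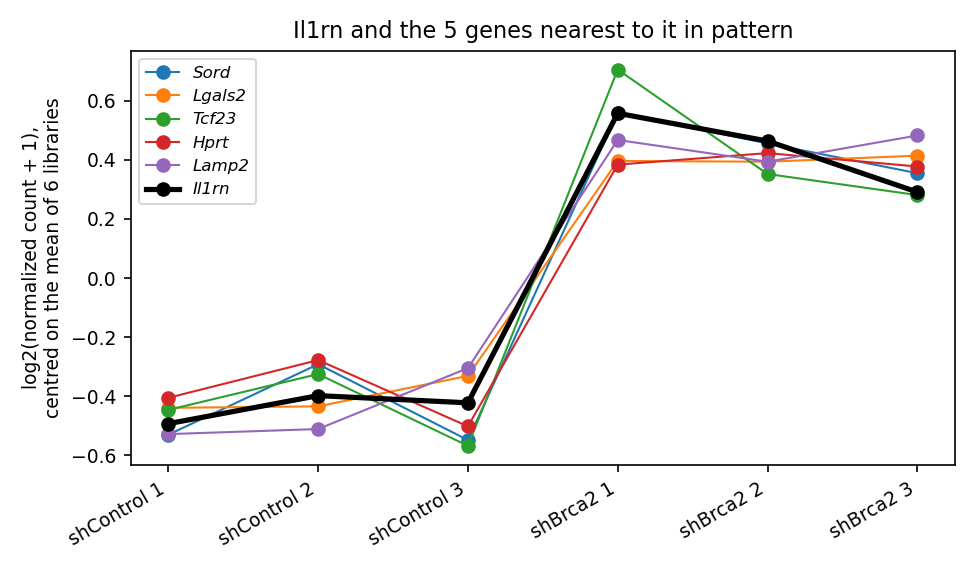
Log2(normalized count + 1), centred on the mean of the 6 libraries, for Il1rn (black) and the 5 genes nearest to it (colors), by library. All 6 genes lie below 0 in the shControl libraries and above 0 in the shBrca2 libraries, and the nearest, Sord, is at a root-mean-square distance of 0.0739.

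The position of Il1rn was examined last. Within 1 Mb of the gene on GRCm38.p6, 22 other protein-coding genes were listed, and 0 of them were called. Their log2 fold changes ran from -0.83 to 1.08 with a median of -0.11, and the smallest adjusted p was 0.431 by DESeq2. Il1a and Il1b lie on the same chromosome at 129299609 and 129364569, outside this window. Psd4, the closest listed neighbour, which starts 30.7 kb from the start of Il1rn, had a log2 fold change of -0.63 (adjusted p = 0.581).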

How the data were processed

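The authors deposited 1 table of raw counts per gene symbol, with 1 column per library and no normalization or pooling. The submitters' processing notes name bcl2fastq, cutadapt, STAR 2.4.2a, HTSeq, DESeq2 and the build mm10. The annotation, the use of strand and that of molecular identifiers are not given in the sources used here, so a read may not equal 1 molecule. Counts were not scaled by gene length. Base means were ranked between genes to choose named genes, and marker counts were summed over genes. All listed genes had at least 6 counts in some library.

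Groups came from the source name, replicates were numbered in accession order, and 0 sample columns were left unused. Differential expression over all 10616 genes used the likelihood ratio test of DESeq2 1.42.0 (R 4.3.3, default size factors), which follows the study's methods, with the thresholds given above. Of all genes, 9997 had an adjusted p, and 884 had an unadjusted p under 0.05. Fold changes were not shrunken, and 95% intervals are 1.96 standard errors to either side. The pipeline was tested on simulated counts.

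Named genes were the listed members, Brca2, called genes of the pathway lists, the 2 genes of each list with the highest base mean, the 2 with the largest absolute log2 fold change at a base mean of at least 20, and the 5 nearest to Il1rn. The members, the lists and this rule were chosen with earlier results of these data known. Lists are described by counts and medians. One gene of the response list is not reported here and is left out of its counts and median. The alternatives comprised the edgeR 4.0.16 quasi-likelihood test with TMM scaling, a Wald test, other scalings by TMM or by total counts, 2 low-count filters, other thresholds and each library left out. Positions and promoters came from RefSeq on GRCm38.p6, the build named mm10, and overlaps and transcripts from GENCODE vM39 on GRCm39. Promoter sequences were matched for 9 of the 10 genes searched, which were the listed members and the 3 called pathway genes. The gene without a sequence was Vcam1. Total counts ranged from 1519340 to 2452467 per library, and no pair of libraries within a group matched within counting noise (chi-square per degree of freedom of at least 4.33).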

Additional observations from a re-analysis of the deposited data

How the results depend on the processing

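The log2 fold change of Il1rn ranged from 0.82 to 0.95 in the 6 leave-one-out fits and was 0.88 under the other tests, scalings and filters. Of the 6 members other than Il1rn, 0 were called under the 12 alternative fits (lowest adjusted p = 0.204, by edgeR). The count of called genes, 127, ranged from 47 to 140 when one library was left out, with 81 without shBrca2 replicate 1, 47 without shBrca2 replicate 3 and 55 without shControl replicate 2, where fewer samples were fitted. The median over all genes shifted by less than 0.1 (log2) under each scaling. For the NF-kB list, the genes called lower went from 1 to 0 under edgeR and in 5 of 6 leave-one-out fits (all but the one without shControl replicate 1), while its median ran from -0.44 to -0.32 in those fits. For the response list the genes called lower ranged from 1 to 2, with 1 without shBrca2 replicate 2 or 3 or shControl replicate 2 or 3, and the median from -0.34 to -0.22. These list values were added after seeing the data. Over 32 single genes other than Il1rn, 341 of 371 values under an alternative had the direction and call of the main value, 19 lost a call, 0 gained one and 11 reversed, and 13 gave no value. The reversed values were all near 0 and came from fits that left out one library: Irak4 ranged from -0.40 to 0.15, Sigirr from -0.15 to 0.25, Il18rap from -0.45 to 0.015, Mapk14 from -0.16 to 0.0078, Map2k3 from -0.0195 to 0.12 and Ticam1 from -0.18 to 0.17. Brca2 ranged from -1.70 to -1.46 and lost its call in 3 of 6 such fits. The cause was not tested. No paired analysis was possible because the labels give the groups no shared replicate numbers. Low counts limited Il18 and Irak4.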

Other observations

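A pair of further response genes, chosen after their values were seen, were low in the library in which Il33 was low. Cxcl5, a chemokine that attracts neutrophils, had 277, 259 and 229 normalized counts in shBrca2, 226 and 250 in shControl replicates 1 and 2, and 40.5 in shControl replicate 3. Mmp13, a collagenase, had 20.4, 17.0 and 13.9 in shBrca2, 22.2 and 12.6 in shControl replicates 1 and 2, and 2.97 in shControl replicate 3. Cxcl1, another chemokine for neutrophils, had 51.8, 59.6 and 61.8 in shBrca2 and 56.6, 57.0 and 64.3 in shControl, so it was not low there. Between the groups, with shControl replicate 3 included, the log2 fold changes were 0.56 for Cxcl5, 0.44 for Mmp13 and -0.03 for Cxcl1. The DESeq2 adjusted p-values were 0.928, 0.936 and 0.989.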
